A study of Ovis aries with 2 samples.

Results

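Early inner root sheath (IRS) cells of Hu sheep lambskin were selected by their keratins. A cell was a member if KRT71, KRT25, KRT27 and KRT28 together reached from 20 to below 100 CP10K (unique molecular identifiers, UMIs, per 10000 UMIs of the cell) and if at least 1000 genes were above 0. This rule found 398 of 14037 cells, of which 95 came from straight wool and 303 from curly wool skin. The skin was taken from the body side of Hu sheep lambs at day 3, that of 3 straight wool lambs was pooled into 1 library and that of 3 curly wool lambs into another, and cells from dissected hair follicles and from whole skin were mixed within each pool. As each wool type had 1 library, single lambs could not be told apart, wool types could not be tested against each other, and how many cells of a kind were found may also reflect the mixing. All intervals given are 95% intervals that cover counting error only.

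The IRS is the sheath of epithelial layers that surrounds the growing hair shaft and moulds it before breaking down near the level of the sebaceous gland. It arises from dividing matrix cells in the bulb. Its cells stop dividing, fill with a special set of keratins (the type II keratin KRT71 and the type I keratins KRT25, KRT27 and KRT28), and are then hardened by crosslinked matrix proteins. The transcription factor GATA3 is needed for this layer to form, and mutations in several IRS keratins are known to give woolly or wavy hair in mammals.

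Early IRS cells made up 1.47% (1.19 to 1.80) of the straight and 3.99% (3.57 to 4.46) of the curly library. Summed over straight members there were 1510062 UMIs, and single cells had between 1464 and 27614 (median 17171). Summed over curly members there were 4364957, and single cells had between 1604 and 43278 (median 16498). The keratin sum that defined them had a median of 41.2 CP10K in straight and 37.3 CP10K in curly cells. The limits cut through a continuous range. The nearest straight cells lay at 19.86 and 20.04 CP10K at the lower limit and at 98.77 and 102.7 CP10K at the upper limit, and the nearest curly cells at 19.98 and 20.15 CP10K at the lower limit, and a curly cell at 99.64 CP10K was the last below the upper one. The same keratin range also held 194 straight and 855 curly cells with fewer than 1000 genes, whose median was 724.5 and 815 UMIs, and these were left out by the rule. No barcode was shared by a straight and a curly member, whereas 70 barcodes occurred in both libraries as a whole.

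The markers fitted the label in most but not all members. GATA3 had a UMI in 68 of 95 straight and in 216 of 303 curly cells. Depth differed widely among members, and they were split at 7500 UMIs, a limit set after the depth had been seen. The 77 straight and 204 curly cells at or above it carried GATA3 in 81.8% and 90.2% of cells. The 18 straight and 99 curly cells below it carried GATA3 in 27.8% and 32.3%, at a median of 3188.5 and 2977 UMIs per cell. With each cell thinned to 2000 UMIs, GATA3 had a UMI in 23.1% (5.04 to 53.8) of straight and 24.7% (16 to 35.3) of curly shallow cells, against 33.8% (23.4 to 45.4) and 41.2% (34.4 to 48.3) of deep cells. These shallow cells also held keratins of other layers. KRT5 and KRT14 of the basal layer, KRT17 and KRT6A of the companion layer and outer sheath together had a median of 35.7 CP10K in straight and 87.6 CP10K in curly shallow cells, against 11 and 8.74 CP10K in deep cells. They were at 50 CP10K or more in 6 of 18 and 54 of 99 shallow cells, and in 5 of 77 and 11 of 204 deep cells. VIM, the intermediate filament of mesenchymal cells, was at 1056 (straight) and 1216 CPM (curly) in shallow cells (CPM is the level over all UMIs of a group, in units 100 times smaller than CP10K), and at 76.0 and 35.3 CPM in deep ones. The shallow cells are therefore not called early IRS cells without reserve. Many results are given for the deep cells as well, and a value given for all members only may depend on shallow cells.

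**Figure D1:**
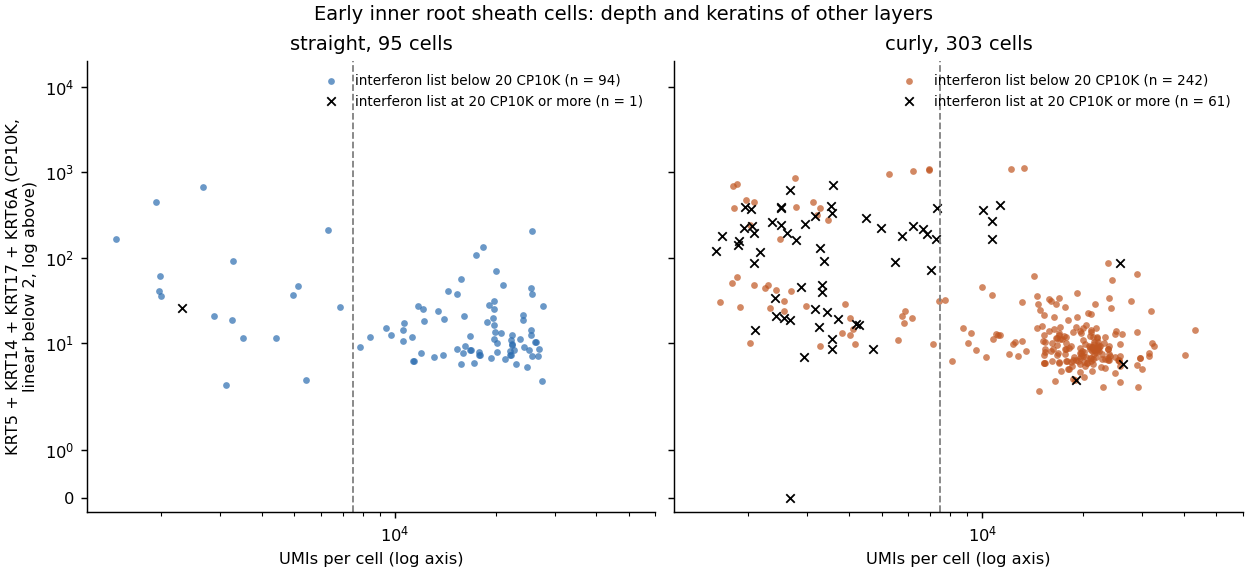
Each point is 1 early IRS cell, with its UMIs on a log axis and the summed level of KRT5, KRT14, KRT17 and KRT6A in CP10K, in the straight (left) and the curly library (right). Crosses mark cells with at least 20 CP10K of interferon response genes (1 straight and 61 curly cells), and the dashed line stands at 7500 UMIs. Most cells to the right of the line lie near the medians of 11 and 8.74 CP10K, while cells to its left spread upwards, most of all in curly skin.

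The background of IRS keratin UMIs was measured in cells that should not make these keratins. Whether it came from free RNA or from doublets was not tested. In cells marked by at least 3 UMIs of the endothelial genes PECAM1, KDR, CDH5 and EMCN, the 4 keratins had a median of 1.35 CP10K in straight and 4.23 CP10K in curly skin. In dermal papilla cells, marked by WIF1, IGFBP3 and APOD, the medians were 1.60 and 5.19 CP10K. These medians lie below the lower limit of 20 CP10K, and the curly background was the higher one. Single cells did reach the limit, namely 0 of 137 straight and 2 of 110 curly endothelial cells. Among dermal papilla cells, 1 of 884 straight and 7 of 466 curly ones did. After each cell was thinned to 2000 UMIs, KRT71 had a UMI in 74.4% (64.2 to 83.1) of straight and 86.2% (81.6 to 89.9) of curly early IRS cells, against 13.3% and 30.9% of endothelial cells. The unthinned shares were 93.7% and 96.4%, against 45.3% and 66.4%. KRT71 is part of the sum that chose the members, so that its higher share in them is built in. Median depth was 8291 and 5819.5 UMIs in the endothelial cells. GATA3 had a UMI in 32.2% and 36.7% of thinned early IRS cells and in 2.22% and 0.909% of endothelial cells (71.6% and 71.3%, and 10.2% and 9.09%, before thinning). RPTN encodes repetin, which belongs to the hard matrix of cornified cells. It had a UMI in 16.7% (11.8 to 22.5) of thinned deep curly cells and in 17.3% (10.7 to 25.7) of curly endothelial cells. In straight skin the shares were 13% (6.41 to 22.6) and 6.67% (3.09 to 12.3), whose intervals overlapped. Before thinning they were 61.8% and 37.3% in curly, and 49.4% and 28.5% in straight skin. In the matrix reference cells described below, the thinned shares were 9.61% (7.36 to 12.3) in curly and 5.99% (3.53 to 9.41) in straight skin. How much of the RPTN of early cells was free RNA was not tested.

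Within the selected cells, KRT25 was the keratin with most UMIs. It led in 64 of 95 straight and 205 of 303 curly cells, and KRT71 led in 26 and 78. KRT27 led in 2 and 3 cells and KRT28 in 1 and 0, and the others were tied. A UMI is counted once per molecule whatever the length of the transcript, though how well each transcript is caught was not known. All 4 keratins had a UMI in 44 straight and 123 curly cells. These counts describe the cells that the keratins themselves chose. KRT71 was at 1577 (straight) and 1811 CPM (curly) in members, KRT25 at 2610 and 2705 CPM, KRT28 at 269 and 314 CPM, and KRT27 at 293 and 217 CPM. In the shallow curly cells KRT27 had a UMI in 65.9% of thinned cells, against 27.5% of thinned deep curly cells and 17.3% of curly endothelial cells, and KRT28 in 15.3% against 34.8% and 0.909%. Before thinning the shares in shallow and deep curly cells were 72.7% and 75% for KRT27, and 22.2% and 63.2% for KRT28.

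The mix of the 4 keratins was not the same along the range of their sum. Among deep cells, KRT28 made up 4.07% of the UMIs of the 4 keratins in straight cells at 20 to below 40 CP10K and 10.8% at 100 to below 300 CP10K, but 0.749% in cells at 300 CP10K or more. In curly cells the values were 4.43%, 5.41% and 0.50%. KRT27 went the other way at the top of the range, with 5.37%, 5.96% and 11.9% in straight and 3.01%, 3.84% and 15.8% in curly cells. KRT25 took 69.4% in straight cells at 20 to below 40 CP10K and 44.0 to 54.3% in the other early bins, and between 51.0% and 56.4% in the curly early bins. Below the early range, at 5 to below 20 CP10K, it took 73.3% and 63.2%.

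**Figure D2:**
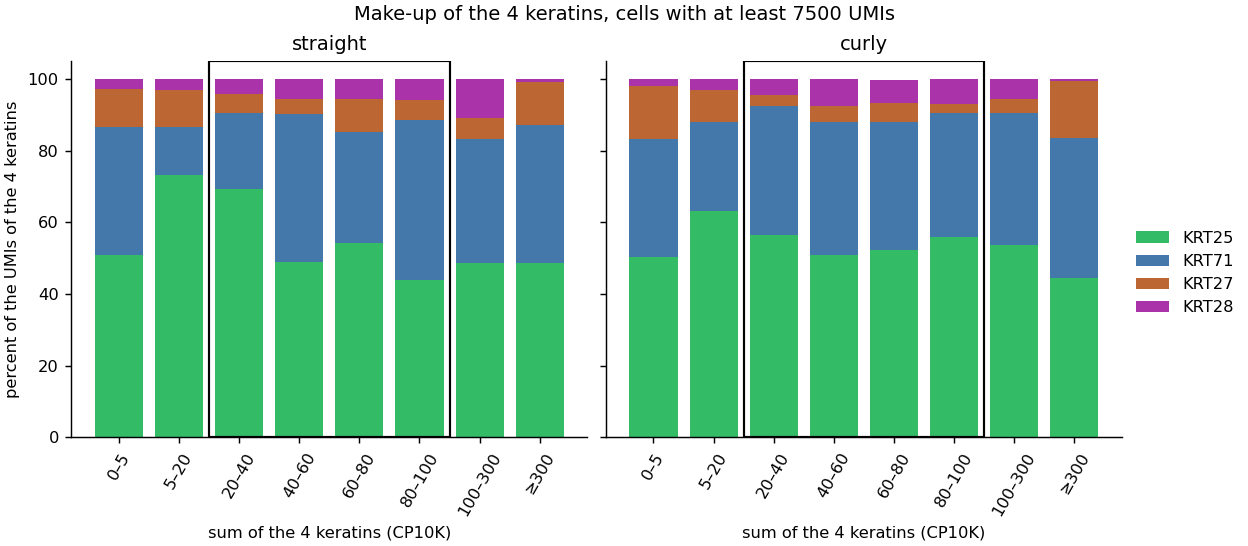
Stacked bars give the percent of the UMIs of the 4 keratins that KRT25, KRT71, KRT27 and KRT28 took in cells with at least 7500 UMIs, by bins of the keratin sum in CP10K, for straight (left) and curly (right); the box marks the bins of the early IRS cells. KRT28 shrinks to 0.749% and 0.50% and KRT27 widens to 11.9% and 15.8% in the last bin.

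Levels in CPM over the same bins of deep cells placed genes along this range. The bins held 33, 19, 17 and 8 straight and 91, 47, 37 and 29 curly early IRS cells, in rising order of the keratin sum. KRT28 was at 116, 268, 379 and 518 CPM in the straight bins and at 129, 384, 478 and 624 CPM in the curly bins, then at 1694 and 878 CPM in cells at 100 to below 300 CP10K, and at 536 and 449 CPM above that. KRT28 is part of the sum that sets the bins, so that its higher level from bin to bin is partly built in. GATA3 was at 222, 271, 263 and 341 CPM in straight and at 266, 289, 341 and 299 CPM in curly bins, and at 136 and 125 CPM in cells at 300 CP10K or more. The lowest GATA3 level was in the first of these bins in both libraries, and in curly cells its interval there (242 to 291) lay below that of the third bin (301 to 386), while in straight cells the intervals of the first (187 to 261) and the last early bin (253 to 449) overlapped. PRR9, which encodes a proline-rich protein, was at 437, 1037, 2572 and 1663 CPM in straight and at 262, 849, 1917 and 1006 CPM in curly bins. RPTN stayed between 39.1 and 116 CPM in the straight bins and between 64.3 and 435 CPM in the curly bins, and was at 10420 and 13644 CPM in cells at 300 CP10K or more.

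PLAU, which encodes the secreted protease urokinase, was at 539, 637, 345 and 491 CPM in the straight bins and at 194, 229, 312 and 120 CPM in the curly bins, against 12.9 and 38.1 CPM in cells at 300 CP10K or more. PCNA, the sliding clamp of DNA replication, was at 351, 109, 126 and 136 CPM in straight and at 189, 159, 75.2 and 42.8 CPM in curly bins. In both libraries PCNA was highest in the first of these bins, though in curly cells its interval (169 to 211) overlapped that of the next bin (135 to 187). DCN, which encodes the matrix protein decorin, was at 562, 123, 205 and 27.3 CPM in straight and 743, 146, 270 and 202 CPM in curly bins, also highest in the first. FBP1, an enzyme of glucose synthesis, was at 78.5, 176, 249 and 157 CPM in straight and 205, 298, 312 and 234 CPM in curly bins, and at 22.6 and 57.2 CPM in the last bin above them. LPAR6, a receptor for lysophosphatidic acid whose loss gives woolly hair in people, was at 37.0, 112, 178 and 198 CPM in straight and 86.6, 102, 177 and 135 CPM in curly bins.

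**Figure D3:**
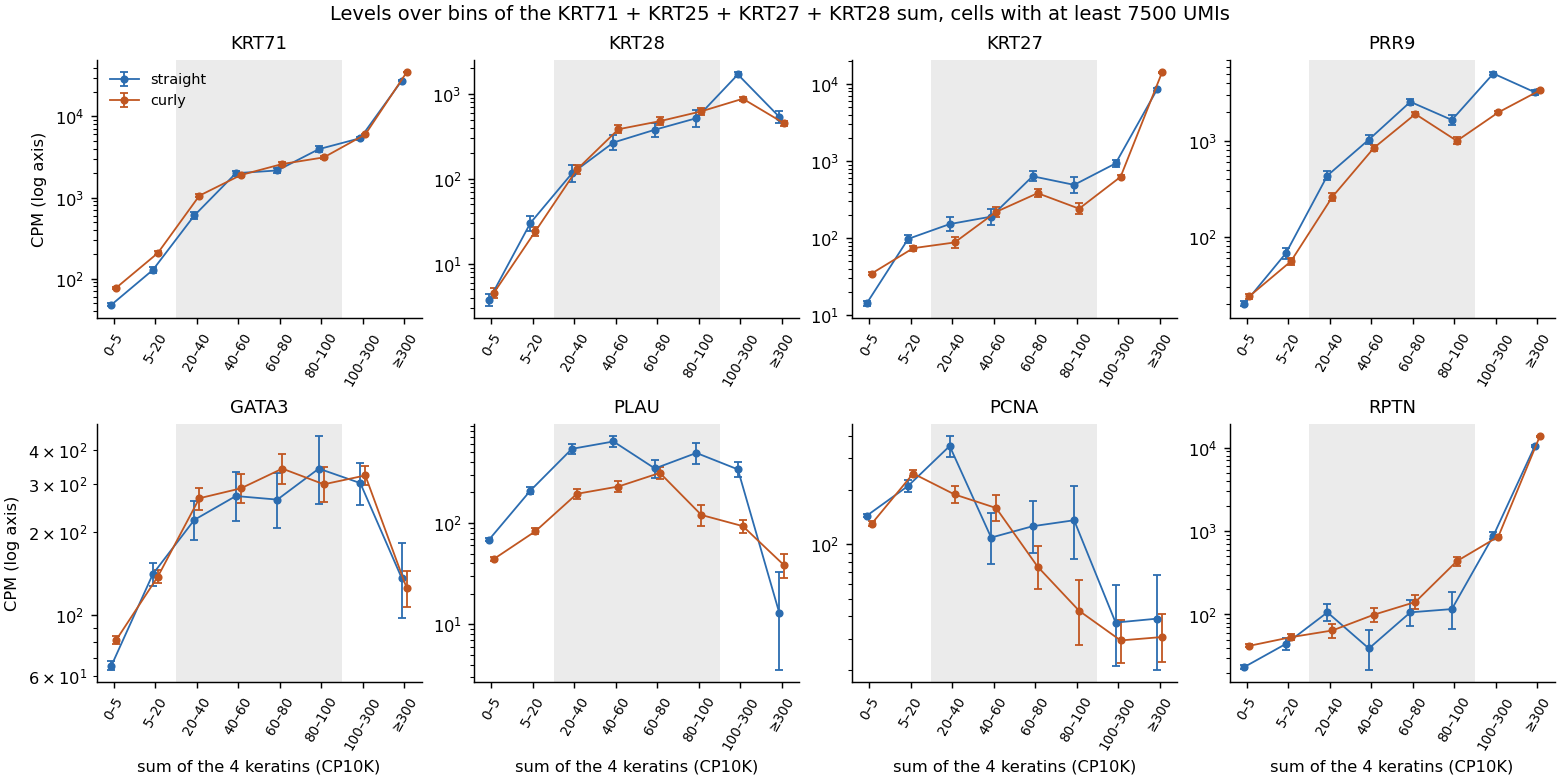
Points give the CPM of 8 genes (log axes) in bins of the summed level of the 4 keratins in CP10K, for straight and curly cells with at least 7500 UMIs, with exact Poisson 95% intervals as bars; the grey field marks the early IRS cells. GATA3 and PLAU were high across the grey field and low at 300 CP10K or more, PCNA was highest at its left edge, and RPTN reached 10420 and 13644 CPM only in the last bin.

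Early IRS cells were then set beside the 44 straight and 178 curly cells at 100 CP10K or more. A gene was counted if its level differed more than 2-fold in the same direction in both libraries. Of 5800 genes with enough UMIs, 285 (4.91%) were higher and 70 (1.21%) lower in early cells. In deep cells alone, the counts were 223 (4.13%) and 71 (1.32%) of 5395 genes. Of the genes past 2-fold, 80.3% were higher in early cells, and 65.7% with a trimmed mean scaling (TMM). The median log2 ratio of early over later cells over all genes was 0.13 in straight and 0.20 in curly skin on the log2 scale.

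Genes of DNA replication were higher in early cells. Of 13 S phase genes, 12 had enough UMIs and 12 of 12 were past 2-fold higher in both libraries, with a median log2 ratio of 2.08 in straight and 2.29 in curly cells. RRM2, a subunit of the enzyme that makes deoxynucleotides, was at 25.2 (straight) and 16.5 CPM (curly) in early cells, and had 0 UMIs and 1.70 CPM in cells at 100 CP10K or more. The log2 ratio of CDT1, which licenses replication origins, was 3.39 and 3.08, that of TK1, a thymidine kinase, 3.02 and 3.45, and that of PCNA 2.33 and 2.15. Of 16 genes of mitosis, 8 of the 11 with enough UMIs were past 2-fold (medians 1.17 and 1.94), among them TOP2A, BIRC5 and AURKB. S phase genes summed to a median of 4.47 CP10K in deep straight and 1.5 CP10K in deep curly early cells, against 1.17 and 0.858 CP10K at 100 CP10K or more.

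Genes of the hardening sheath were lower in early cells. Of 12 genes of IRS matrix and crosslinking, 7 could be compared and 5 were lower past 2-fold in both libraries, with medians of -2.52 and -2.47. The log2 ratio was -5.77 in straight and -5.37 in curly cells for RPTN, -2.73 and -2.54 for TGM1, a transglutaminase that crosslinks envelope proteins, and -2.52 and -2.47 for PADI1, which turns arginine into citrulline. TGM7, another transglutaminase gene, had 1 UMI in straight and 15 UMIs in curly early cells. Filaggrin (FLG) had 5 and 34 UMIs there, and its log2 ratio was -7.80 and -3.77. CASP14, the caspase of cornifying keratinocytes, had 2 and 10 UMIs. GPX3, a secreted glutathione peroxidase, was at 2.65 and 11 CPM in early cells, with log2 ratios of -4.66 and -3.14. Trichohyalin (TCHH) and the IRS keratins KRT72, KRT73 and KRT74 were not analysed here.

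Desmosome genes, which tie keratinocytes together, did not go one way. Of 17 genes of desmosomes and adherens junctions, 13 were compared, with 3 higher and 2 lower past 2-fold. The plakophilin gene PKP3 (log2 ratio -1.59 and -1.39) and the desmocollin gene DSC1 (-1.39 and -1.60) were lower in early cells, and the desmoglein DSG2 (1.19 and 1.81), DSC3 (1.24 and 1.15) and P-cadherin CDH3 were higher. CDH3 had 58 UMIs in straight and 43 UMIs in curly early cells, and 0 and 14 UMIs in the later cells, and its curly ratio was 1.31. In deep cells 1 gene of the list was higher and 2 were lower. Over the whole list the sum was a median of 34.2 and 33.9 CP10K in deep early cells, 54.0 and 51.1 CP10K at 100 CP10K or more, and 13.2 and 15.1 CP10K in the matrix reference cells that follow. Fibroblast genes were higher past 2-fold in 3 of 4 and dermal papilla genes in 4 of 5, but only 1 and 3 of them had enough UMIs in deep cells, where 1 of each list was higher (FBLN1 and IGFBP3). Examples over all cells were COL1A1 (3.68 and 3.02, with 2 and 6 UMIs in the later cells) and COL3A1 (43 and 57 UMIs in early, 0 and 7 in later cells). Genes of non-epithelial cells summed to 20 CP10K or more in 5 straight and 28 curly members, and 1 straight cell held 62.8% of all straight COL3A1 UMIs. Ratios of named genes, over all comparisons, were also computed without such cells. Of 214 ratios, 25 then no longer passed 2-fold and 7 changed sign, the latter given at the end. Where the non-epithelial UMIs came from was not tested.

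Matrix reference cells were taken as the other neighbour. These 284 straight and 593 curly cells had at least 3 UMIs of MSX1, MSX2, LEF1 and HOXC13 together, and less than 20 CP10K of the IRS keratins, of hair shaft keratins (KRT35 and KRT84) and of non-epithelial genes. Of 8526 genes, 150 (1.76%) were higher and 253 (2.97%) lower in early IRS cells past 2-fold in both libraries, and in deep cells 123 (1.47%) and 368 (4.41%) of 8347. Of the genes past 2-fold, 37.2% were higher, 25.1% in deep cells, and 65.2% where each cell's CPM had the same weight.

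The genes that stood highest over the matrix cells, apart from the keratins, were of several kinds. PRR9 was at 1122 (straight) and 831 CPM (curly) in early cells, against 31.5 and 32.2 CPM in matrix cells. LRAT, which turns retinol into its storage esters, had log2 ratios of 3.67 and 4.00. CHP2, a calcineurin B homologue, had 3.90 and 3.33, and FBP1 had 3.94 and 2.70. LPAR6 was at 97.3 and 109 CPM in early cells against 14.3 and 17.2 CPM in matrix cells, a log2 ratio of 2.76 and 2.67. LPAR6 is no marker of the sheath alone, since endothelial cells held 265 and 176 CPM. The unnamed gene LOC101110219 had a larger ratio (7.02 and 5.59), but 68.2% of its straight UMIs lay in 1 cell. LOC101117044 had 21 and 87 UMIs in early cells against 0 and 8 UMIs in matrix cells.

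Lower than in matrix cells were genes of several roles. FABP7, a fatty acid binding protein, was at 27.2 and 17.6 CPM in early cells against 390 and 331 CPM in matrix cells. KITLG, the ligand that guides melanocytes, was at 5.96 and 2.52 CPM against 48.1 and 28.8 CPM. The log2 ratio was -2.94 and -2.99 for DCN and -4.15 and -4.12 for CDSN, whose product corneodesmosin holds cornified cells together. NOTUM, an extracellular inhibitor of WNT ligands, had 3 and 9 UMIs in early cells. S phase genes had medians of -0.65 in straight and -1.28 in curly cells, where the median over all genes was -0.05 and -0.14, and 3 of 13 were lower past 2-fold in both libraries (MCM2, MCM5 and TYMS). None of 16 mitosis genes passed 2-fold in both (medians -0.45 and -0.98). Early IRS cells thus lay between matrix cells and cells with more IRS keratin in both cell cycle lists. Hair shaft transcription factors were lower as well, with 2 of 6 past 2-fold (LEF1 at -2.16 and -1.48, HOXC13 at -2.09 and -2.48), but the matrix cells had been picked by 4 of these genes, so that this is no finding.

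**Figure D4:**
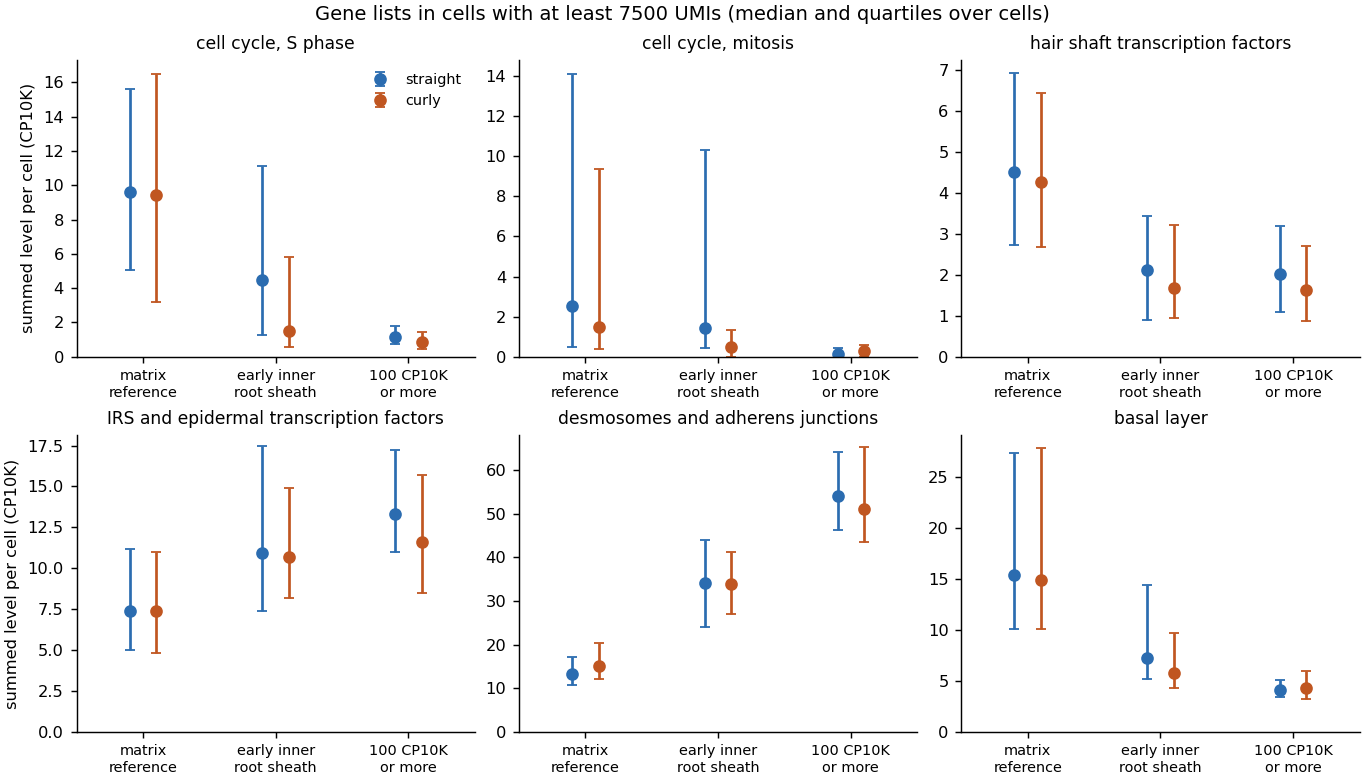
Points give the median and bars the quartiles over cells of the summed level (CP10K, axes from 0) of 6 gene lists in matrix reference cells, early IRS cells and cells at 100 CP10K or more, for straight and curly cells with at least 7500 UMIs. The early cells' medians of both cell cycle lists lie between those of the neighbours, junction genes are at 13.2 and 15.1 CP10K in matrix and 34.2 and 33.9 CP10K in early cells, and basal layer genes are lower in early than in matrix cells.

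Among transcription factors of the IRS and epidermis, 15 of 21 were compared with matrix cells, and 3 were higher and 1 lower past 2-fold, where 1.76% and 2.97% of all genes were. GATA3 was at 250 CPM (log2 ratio 1.43) in straight and 283 CPM (1.34) in curly early cells. The grainyhead factors GRHL1 (1.15 and 1.02) and GRHL3 (3.36 and 1.95), which drive epidermal differentiation, were the other 2, and ELF5 was the lower one (-1.29 and -1.27, from 2 straight and 16 curly UMIs). In deep cells GATA3 and GRHL3 were higher. CUX1 (0.50 and 0.29), KLF4 (0.04 and 0.43) and TFAP2A (0.80 and 0.62) stayed within 2-fold, and so did DLX3 (-0.14 and 0.13). Against cells at 100 CP10K or more, 1 of 11 was past 2-fold, the basal factor TP63 (1.48 and 1.60). Basal layer genes, with medians of 1.82 and 1.79, were higher in early cells in 6 of 6, and in 3 of 5 in deep cells.

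Signalling genes were counted against the 1.76% higher and 2.97% lower of all genes compared with matrix cells. Of 16 WNT genes, 0 were higher and 1 lower, the ligand gene WNT10B (-2.16 and -2.08). Of 15 BMP genes 0 were higher and 1 lower: ID1, a BMP target, with log2 ratios of -1.53 and -1.09. ID3, another target, was at 1911 (straight) and 1579 CPM (curly) in early cells (0.26 and 0.12). Of 10 Notch genes 2 were higher, the receptors NOTCH2 (1.43 and 1.18) and NOTCH3 (1.5 and 1.31), and 2 were lower, the ligand JAG2 (-1.64 and -1.83) and the Fringe enzyme LFNG (-2.33 and -3.13). Of 13 genes of the EGF and FGF families, 4 were higher: the EGF receptor ligands AREG (1.94 and 1.13), EREG (3.59 and 2.91) and HBEGF (1.28 and 1.33), and the receptor ERBB3 (1.71 and 1.24). In deep cells 2 of 14 WNT and 2 of 15 BMP genes were lower, the Notch counts were the same, and 4 EGF and FGF genes were higher and 1 lower. Against cells at 100 CP10K or more, where 4.91% of all genes were higher and 1.21% lower, 1 of 9 WNT genes (SFRP1), 1 of 12 BMP genes (FST), 0 of 8 Notch genes and 2 of 12 EGF and FGF genes (FGFR2 and IGFBP5) were higher, and 0 genes of these lists were lower. In deep cells the higher ones were 0 of 7, 1 of 11, 1 of 7 (NOTCH1) and 1 of 9 (FGFR2).

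A peak in the early cells themselves was rare. Among 1647 genes with at least 100 UMIs in early cells of each library, 238 were higher than in both neighbours in both libraries by any size, and 3 by more than 2-fold. These were IGFBP3, PLAU and the unnamed gene LOC101120093, and in deep cells only PLAU was left. IGFBP3 is one of the non-epithelial genes whose sum was limited in matrix reference cells but not in members. Its higher level over matrix cells is thus partly built in. PLAU was at 517 CPM in straight early cells, 216 CPM at 100 CP10K or more and 66.3 CPM in matrix cells, and at 200, 72.0 and 41.1 CPM in curly cells. Before thinning, a UMI of PLAU was found in 50.5% of straight and 38.3% of curly members, and in 3.39% and 3.65% of dermal papilla cells. After thinning to equal depth, the shares were 30% and 13.5% of members, and 0.908% and 1.51% of dermal papilla cells. Endothelial cells, with 380 and 189 CPM, expressed PLAU too. Their thinned shares were 36.3% and 21.8%, above those of members, with overlapping intervals in both libraries. HCAR2, the niacin receptor, was at 280 and 131 CPM in early cells, with ratios of 1.91 and 1.13 over the later and 1.14 and 0.66 over the matrix cells. The small GTPase gene RAP2B, at 223 and 102 CPM, had ratios of 0.96 and 0.90, and 1.25 and 0.74. VIM was above both neighbours too, but 421 of its 563 curly UMIs lay in shallow cells, as did 67 of 177 straight ones. Of IGFBP3, 327 of 414 curly UMIs lay in shallow cells and 58.1% of straight UMIs in 1 cell.

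Hair shaft keratins were scarce in the early cells. KRT35, an early one of them, was at 231 (straight) and 300 CPM (curly) in early cells, within 2-fold of matrix cells. The matrix cells had been limited in KRT35, so that their level is partly set by the rule. Hair shaft keratins summed to 566 and 340 CPM in early cells, and to 74.8 and 124 CPM at 100 CP10K or more. Their medians over cells were 0.950 and 0.952 CP10K in early cells, and 0.736 and 0.792 CP10K in the later ones. Against 274 straight and 460 curly hair shaft reference cells, 308 (3.89%) of 7927 genes were higher and 255 (3.22%) lower in early IRS cells. Only 3 straight and 17 curly members had 20 CP10K or more of hair shaft keratins. One straight cell, with 27538 UMIs and an IRS keratin sum of 77.3 CP10K, held 162 CP10K of hair shaft keratins, and 4 UMIs of GATA3. It alone gave 334 of 340 UMIs of GPRC5D, a receptor of the hair cortex, and 841 of 867 of the hair keratin gene K33 in straight members. With the 6% highest Scrublet scores of each library taken as doublets, 6 straight and 15 curly members would be removed.

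Early IRS cells of curly and straight wool were compared on 4358 genes with at least 100 UMIs. Past 2-fold, 105 (2.41%) were higher in curly and 197 (4.52%) lower, so that 34.8% of these genes were higher. Over all genes, the log2 ratio of curly to straight had a median of -0.18 (SD over genes 0.71), and values are to be read against this shift. With TMM 156 genes were higher and 102 lower, or 60.5% higher, and the split therefore depends on the scale. In deep cells 73 (1.83%) of 3999 genes were higher and 197 (4.93%) lower.

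The rule held the sum of the 4 IRS keratins to 1 range in both wool types, which limits how far they can differ. The log2 ratio of curly over straight was 0.20 (0.13 to 0.27) for KRT71, 0.05 (0.00 to 0.10) for KRT25, -0.44 (-0.60 to -0.27) for KRT27 and 0.23 (0.06 to 0.39) for KRT28. None of the 4 was past 2-fold, and none of them was in deep cells. GATA3 was at 0.18 (0.01 to 0.35), LPAR6 at 0.16 (-0.11 to 0.44), and PRR9 at -0.43 (-0.52 to -0.35). Of the list of IRS matrix and crosslinking, 3 genes could be compared, with a median of 0.72 in all and 0.63 in deep cells, and 1 was higher past 2-fold (CDSN, 2.39 and 1.73). In the remaining cells of the libraries the ratio was 1.90 for KRT71 and 1.74 for KRT25, where the number of IRS cells and the background of keratin UMIs both enter. Of 11 transcription factors of the IRS list, 1 was past 2-fold (SOX9, 22.5 and 45.1 CPM), and 0 of 10 in deep cells.

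Cell cycle genes did not pass 2-fold between wool types in all members. Their median log2 ratio, against -0.18 over all genes, was -0.63 for 12 S phase genes and -0.63 for 10 mitosis genes, and 0 of each was past 2-fold in all cells. In deep cells the medians were -0.66 and -0.62, and BIRC5 was past 2-fold lower (-1.02). S phase genes summed to 20 CP10K or more in 10 of 95 straight and 18 of 303 curly cells, and mitosis genes in 12 and 21 cells. PCNA was at 223 (straight) and 142 CPM (curly) in early cells, and at 140 and 136 CPM in all other cells. The lower curly level was not particular to early cells. S phase genes summed to 751 and 485 CPM in early cells, 174 and 109 CPM at 100 CP10K or more, and 1103 and 1105 CPM in matrix reference cells. Mitosis genes summed to 683 and 418 CPM, 275 and 114 CPM, and 972 and 836 CPM. Among D cyclins, CCND2 was at 100 and 33.2 CPM, a log2 ratio of -1.59 (-1.93 to -1.25), and CCND3 at 9.27 and 21.3 CPM (1.2). In deep cells CCND3 had 12 and 71 UMIs, too few to be compared.

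Genes lower in curly early cells included the following list members. AREG, the EGF receptor ligand amphiregulin, was at 324 (straight) and 81.8 CPM (curly) in early cells, a log2 ratio of -1.99 (-2.19 to -1.79) that was -2.01 in deep cells and -0.17 in all other cells of the libraries. Its ratios of early over matrix cells, given above, imply that AREG was also more than 2-fold lower in curly than in straight matrix reference cells. PLAU was at -1.37 (-1.51 to -1.23) in early cells and -0.58 in the others. The lower curly level of PLAU was not particular to early cells. By its levels given above, PLAU was also more than 2-fold lower in curly than in straight later cells, those with more IRS keratin. Its log2 ratio of early over later cells was 1.26 in straight and 1.47 in curly skin. PLAU was lower in curly matrix reference and endothelial cells as well. CDH3 was at 38.4 and 9.85 CPM, with -1.96 (-2.57 to -1.37) in early and 0.07 in other cells. The envelope protein involucrin (IVL) was at 86.1 and 19 CPM, with -2.18 in early and 0.49 in other cells. BMP2 was at 72.8 and 32.1 CPM (-1.18), and the activin inhibitor FST at 52.3 and 15.1 CPM (-1.79), the latter also lower in the other curly cells (-2.03). For AREG, PLAU, CDH3 and IVL no cell held more than 15.7% of the UMIs of a library. Of 9 BMP genes 2 were lower past 2-fold, of 9 EGF and FGF genes 1, and of 8 WNT genes 0, where 4.52% of all genes were lower. In deep cells these counts were 2 of 7, 1 of 8 and 0 of 4, where 4.93% of all genes were lower.

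**Figure D5:**
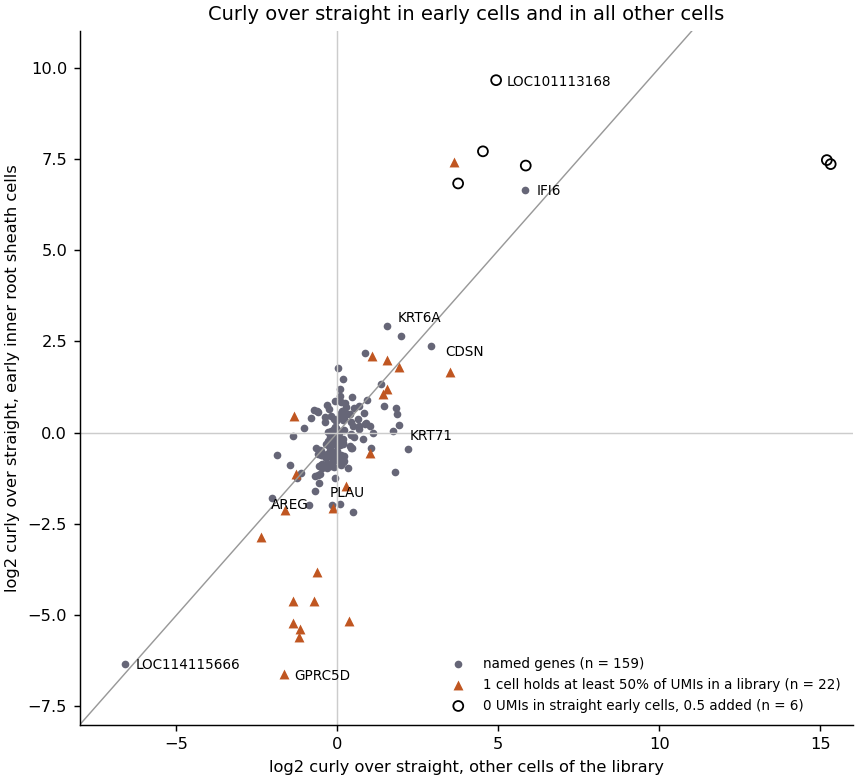
Each point is a named gene with at least 100 UMIs in early IRS cells, with the log2 ratio of curly over straight CPM in all other cells (x) and in early IRS cells (y), and a line of equal values. Triangles are genes of which 1 cell held at least 50% of the UMIs of a library, and open circles have no UMI in straight early cells (0.5 added, also in the other straight cells for the pair at the far right). GPRC5D lies far below the line at -6.62, while IFI6 and LOC114115666 lie near it.

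The lowest ratios in curly cells came from hair genes of 1 straight cell. GPRC5D (-6.62), K33 (-5.59), LOC100526782 (-5.39), V15 (-5.21, listed as KRT31 in RefSeq), PSORS1C2 (-5.17), LOC100526784 (-4.62) and KRT83 (-4.60) had between 92.8% and 98.3% of their straight UMIs in the single cell described above. Of the 197 lower genes, 21 (10.7%) had 1 cell with at least 50% of the UMIs of a library, and in 14 it was that cell. The other gene of this group, LOC114115666, was spread over cells (166 and 2.06 CPM), and was at 101 and 1.04 CPM in all other cells.

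Interferon response genes and unnamed loci gave the highest ratios. IFI6, an interferon-induced protein, was at 7.95 (straight) and 797 CPM (curly) in early cells, a log2 ratio of 6.65 (5.84 to 7.60). In deep cells it was at 4.84 and 281 CPM. In all other cells it was at 75.2 and 4313 CPM, a log2 ratio of 5.84, so that it was not particular to early IRS cells. Interferon genes summed to a median of 0 and 1.51 CP10K in deep early cells, 0 and 25.4 CP10K in shallow ones, and 3.25 and 136 CP10K in endothelial cells. LOC101113168 had 0 UMIs in straight and 1168 UMIs in curly early cells. With a floor of 3 counts over the straight cells it was at least 135-fold higher in curly cells, and it was at 64.8 and 1975 CPM in all other cells. LOC114117888, LOC105607568, LOC114117975, LOC114117974 and LOC101117112 also had 0 UMIs in straight early cells and were at least 34.9-fold, 29.5-fold, 27.3-fold, 26.6-fold and 18.9-fold higher, and 9 of the 105 higher genes had 0 straight UMIs. LOC114117804 had 1 and 492 UMIs. These 7 loci were higher in the other curly cells too.

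Among keratins of other layers, some were past 2-fold higher in curly members, where 2.41% of all genes were higher and 4.52% lower. KRT1 and KRT10 of the spinous layer were at 86.8 and 244 CPM in straight members and at 298 and 677 CPM in curly ones, with log2 ratios of 1.78 and 1.47, and of 0.16 and 0.27 in deep cells. KRT6A had 2.93 in all and 2.15 in deep cells. Of the companion layer list this was 1 of 2, and KRT17 was at 0.44 in all and -0.15 in deep cells. Few deep cells were rich in KRT6A and KRT17. Together they were at 20 CP10K or more in 9 of 204 deep curly and 7 of 77 deep straight cells. Their highest sum was 737 CP10K in deep curly and 94 CP10K in deep straight cells. The median of their sum was lower in deep curly than in deep straight cells. Basal layer genes, KRT5 and KRT14 included, were past 2-fold in 0 of 6, and of 2 hair shaft keratins 0 were higher and 1 lower (KRT2.11). The dissociation response genes, early genes that rise during tissue digestion, had a median of 0.38 with 0 of 12 past 2-fold. In deep cells the median was 0.28, and 1 of 12 was past 2-fold higher. Over all members FOS was at 427 and 730 CPM and JUN at 550 and 753 CPM. Contractile genes were past 2-fold higher in 6 of 6 (median 1.90), as MYH11 with 7.95 and 27.9 CPM, but 1 cell held 90.7% of straight and another 44.8% of curly ACTA2 UMIs. Only 3 of them had enough UMIs in deep cells, and 3 of 3 were higher there (median 2.48). The endothelial, leukocyte and melanocyte lists had 0 genes with enough UMIs, and CDH5, PTPRC and DCT had 0 UMIs in early cells of either library.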

How the data were processed

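The authors aligned reads to Oar_rambouillet_v1.0 with Cell Ranger (version 3.0.2 per the labels), filtered cells and deposited 1 table of 18161 genes, on a natural log scale (ln of 1 + CP10K). The series text counts 15830 cells, the table holds 14037, and 8285 of these have at least 1750 genes. UMIs were recovered from the natural log values, which 100% of the 28552149 values allowed within 0.01. Counts had been assumed in the design. Since the deposited unit is a natural log, no count model was fitted, and TMM was written after its published definition.

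The libraries held 57956122 (straight) and 77634565 (curly) UMIs. For each group of cells in a library the UMIs were added up, and CPM were computed with exact Poisson bounds. Shares have exact Clopper-Pearson intervals. Ratios are log2 of CPM, with 0.5 UMI added where needed and bounds against 3 counts. Genes were compared with at least 100 UMIs over the groups, and were counted past 2-fold. Where cells were thinned, those below 2000 UMIs were left out (5 straight and 14 curly early IRS cells). Doublets were kept in the main values.

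The members, lists and rules were chosen with earlier results of these data known. Named genes are members of the lists, the 8 at each end of the curly over straight ratio, the 15 furthest above both neighbours, and the 15 at each end against each neighbour; 1 of the named genes, and the counts of its list, are not reported here. Names that the table lacks were taken from RefSeq of ARS-UI_Ramb_v3.0 (KRT14 is LOC101118459, KRT83 is LOC100526780, DSC3 is LOC101116442), which gave no positions. Alternatives were other limits on genes, UMIs and keratins, other scalings, and removal of doublets, of cells with non-epithelial genes, or of 1 straight cell. The scripts were tested on simulated data. Scrublet was run in scanpy 1.11.5, intervals came from scipy 1.17.1, figures from matplotlib 3.10.9, and tables from pandas 2.3.3 (Python 3.11.15, numpy 2.4.6).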

Additional observations from a re-analysis of the deposited data

Results flagged for a closer look

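Of the genes compared, 6 differed more than 2-fold in opposite directions in straight and curly cells when early IRS cells were set beside a neighbour. The differences between the libraries were not tested, since each wool type had 1 library. LOC114118004 had a log2 ratio over cells at 100 CP10K or more of 1.46 in straight and -1.75 in curly cells, and over matrix reference cells of -3.37 and 1.98. Of its straight UMIs 51.6% lay in 1 early IRS cell. PSORS1C2 was at 5.14 and -2.10 over cells at 100 CP10K or more, with 98.3% of its straight UMIs in 1 cell. Over matrix reference cells, LOC101104027 was at -2.93 and 1.67, with 54.2% of straight UMIs in 1 cell, and at -2.93 and 0.58 in deep cells, where the curly ratio was within 2-fold. MGP, the matrix Gla protein gene, was at 2.2 and -1.52, with 81.6% of straight UMIs in 1 cell, and at -0.25 and -2.54 in deep cells. MT4, a metallothionein, was at -1.29 and 1.76, with 60.9 CPM in straight and 97.1 CPM in curly early cells and 149 and 28.7 CPM in matrix cells, and no cell held more than 23.3% of its UMIs in a library. LOC101119591 was at -1.02 and 1.13, and at -0.97 and 0.79 in deep cells.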

How the results depend on the processing

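No paired analysis was possible because each wool type had 1 library, and no replicate could be left out. The share of early IRS cells was 1.05% of straight and 2.72% of curly cells with a lower limit of 30 CP10K, 2.85% of curly cells at the higher gene minimum, 3.49% with an upper limit of 80 CP10K, and 2.69% of curly cells at 7500 UMIs. Genes higher in curly cells numbered 192 by the mean of cell CPM, 485 at 20 UMIs and 1548 with no minimum, and lower ones 102 with TMM, 647 and 2073. Over cells at 100 CP10K or more, 142 were higher with the limit of 30 CP10K, 182 with TMM, 829 at 20 UMIs and 1335 with no minimum, and 148 and 256 were lower in the last 2. Over matrix cells, 291 were higher by mean CPM, 288 at 20 UMIs and 1222 with no minimum, and 411 were lower at 30 CP10K, 155 by mean CPM, 506 at 20 UMIs and 644 with no minimum. The share of higher calls moved from 34.8% to 50.1% by mean CPM between wool types, from 80.3% to 65.7% with TMM and 68.9% at 30 CP10K over cells at 100 CP10K or more, and from 37.2% to 65.2% by mean CPM, 65.5% with no minimum, 25.7% at 30 CP10K and 26.7% at the higher gene minimum over matrix cells. The causes were not tested.

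Of 214 ratios of named genes, 182 to 213 stayed the same under each alternative that could change a ratio. Other minimums on UMIs only set which genes were counted, so that no ratio could change there. Between wool types, LOC100526782 went to 0.38 and PSORS1C2 to 0.69 without the 1 straight cell, IL6 to 2.15 at the higher gene minimum and 2.18 at 30 CP10K, and MYH11 to -0.57 at 30 CP10K. Without cells rich in non-epithelial genes, the log2 ratio over cells at 100 CP10K or more went to -0.90 for IL6 and -0.32 for MYLK, and that over matrix cells to -0.32 for LOC101120093, -0.82 for IGF2, -0.05 for IL6, -0.65 for ACTA2 and -0.37 for TAGLN. At 7500 UMIs IL6 went to -0.96 and -0.05. The limits at 7500 UMIs and on the 1 straight cell were chosen after seeing the data. A straight gene with no UMI in early IRS cells may lie at up to 1.99 CPM, and a curly one at up to 0.687 CPM.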
